A study of Mus musculus with 6 samples.

Results

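The miR-344 family was measured as the small RNAs whose miRNA label began with mmu-miR-344 followed by a letter or a hyphen. This rule uses names and no measured value. It gave 16 of the 1101 miRNA labels in the table and 231 of the 143934 read sequences, each of which carried a single miRNA label. The data come from Argonaute-bound RNA of the combined cortex and hippocampus of BL6 mice, which the methods describe as male C57BL/6J animals bought at either age, in 3 libraries at 2 months of age (2M) and 3 at 18 months (18M). No group carried a mutation or a treatment, so age was the only labelled difference. Argonaute proteins Ago1-4, which hold the guide strand in the RNA-induced silencing complex (RISC), were captured with a GW182 peptide, and the bound small RNAs (R-sRNAs) were sequenced. Values are reads per 1000000 reads of a library (RPM), a scale on which every read counts as 1 whole small RNA and no length enters. The libraries held 19272046 to 25080484 reads, and 3 reads corresponded to 0.120 to 0.156 RPM. The labels do not state separate animals for the libraries beyond their replicate numbers, so p-values measure the spread between these 6 samples.

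A miRNA is cut from a hairpin by Drosha and Dicer, and either the 5p or the 3p arm of the resulting duplex can be loaded into Argonaute. Its seed, the bases near the 5′ end, sets which mRNAs it pairs with, so a shift of the 5′ end by a single base gives a miRNA with other targets. The miR-344 genes form a rodent miRNA cluster on mouse chromosome 7 close to the imprinted genes Ndn, Magel2 and Mkrn3, and members of the family are known from brain tissue.

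RefSeq lists 13 miR-344 hairpins on GRCm38.p6, all 13 on the minus strand within 402 kb, and 19 mature names. Of these names 16 were in the table. The mature sequences are shown because the family divides by seed. Capitals mark the 7-base seed, positions 2 to 8 of the mature miRNA, and letters are RNA as in RefSeq. The first 3p pair shares the seed of miR-344-3p and the next pair the seed of miR-344d-3p, while the last 4 3p members have a seed each.
miR-344-3p: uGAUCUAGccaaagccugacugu
miR-344c-3p: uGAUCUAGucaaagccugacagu
miR-344d-3p: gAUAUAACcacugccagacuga
miR-344e-3p: gAUAUAACcaaagccugacuau
miR-344b-3p: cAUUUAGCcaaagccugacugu
miR-344h-3p: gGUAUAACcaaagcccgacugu
miR-344f-3p: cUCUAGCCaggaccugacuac
miR-344g-3p: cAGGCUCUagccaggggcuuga

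The 5p names were more alike. The seed GUCAGGC was common to 6 of them, of which miR-344d-3-5p and miR-344g-5p are shown as the most abundant, and miR-344f-5p differed within the seed. The label miR-344i carries no arm in its name.
miR-344d-3-5p: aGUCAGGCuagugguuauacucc
miR-344g-5p: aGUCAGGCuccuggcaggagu
miR-344f-5p: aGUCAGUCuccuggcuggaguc
miR-344i: aAGUCAGGcuccuggcugga

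The family was a minor part of the RISC in these brains and was led by 2 miRNAs, miR-344d-3p and miR-344-3p. Its summed level was 554, 398 and 454 RPM in 2M replicates 1, 2 and 3, and 542, 746 and 819.9 RPM in 18M replicates 1, 2 and 3. This was 0.0398% to 0.0820% of all reads of a library. The mean of the 18M libraries was 703 ± 144 RPM and that of the 2M libraries 468 ± 79.1 RPM (SD, n = 3), and the ages overlapped, since 18M replicate 1 lay under 2M replicate 1. Without miR-344-3p, the remaining 15 labels summed to 306 to 390.4 RPM at 2M and 362 to 412 RPM at 18M. The sum over members is given as a description, with no test.

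By mean over the 6 libraries, miR-344d-3p was the highest member at 246 RPM, rank 215 among the 1101 labels. miR-344-3p followed at 229 RPM, then miR-344c-3p at 50.4 RPM and miR-344b-3p at 34.4 RPM. These 4 labels supplied 92.7% to 97.3% of the family's reads in a library. A further 7 labels averaged between 1 and 10 RPM, and 5 labels averaged under 1 RPM. Of the 15 pairs of neighbours in this order, 12 had ranges over the 6 libraries that overlapped, miR-344d-3p and miR-344-3p among them. The order was separated by a gap in ranges below miR-344-3p, below miR-344c-3p and below miR-344b-3p.

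**Figure D1:**
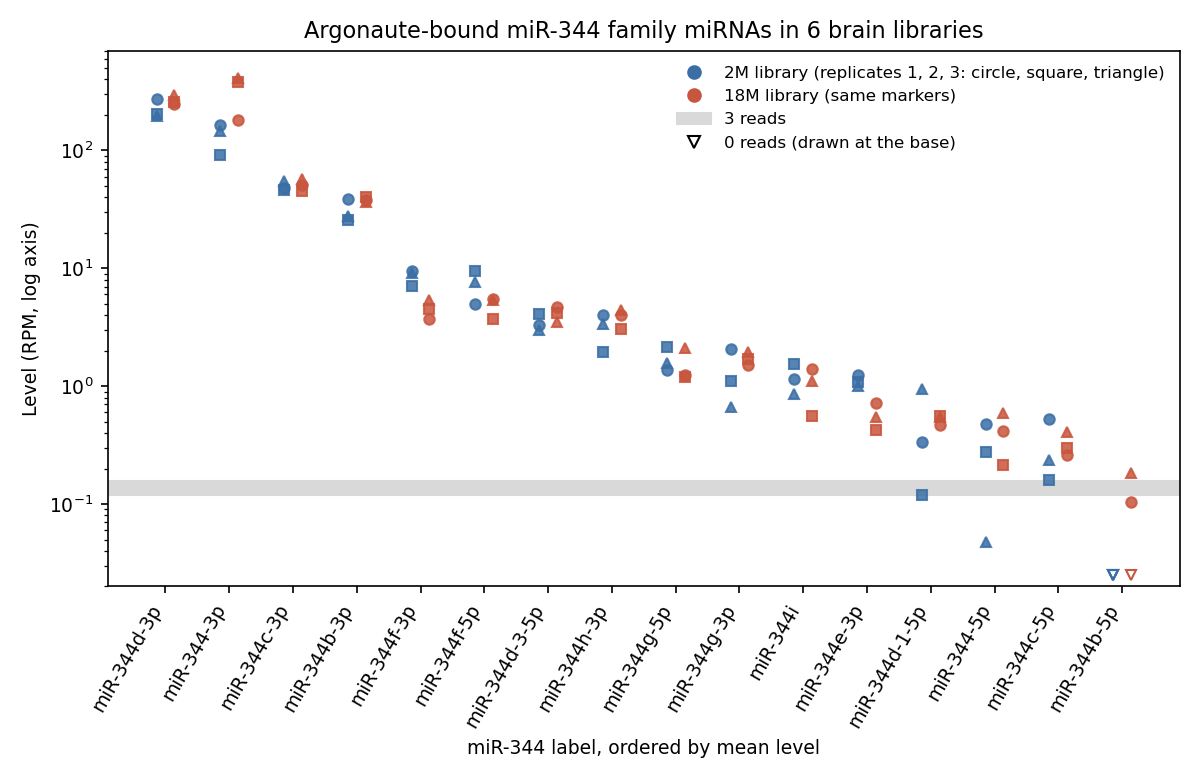
Level of each of the 16 miR-344 labels in RPM (log axis) in the 3 libraries of 2M (blue) and the 3 of 18M (red), with the level of 3 reads as a grey band. The 2 leading labels lie between 91.7 and 408 RPM, while the 5p label of miR-344b was at 0 reads in 4 libraries.

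The age comparison asked whether the RISC of older brains held other amounts of these miRNAs. miR-344-3p was at 163, 91.7 and 146 RPM in 2M replicates 1, 2 and 3, and at 179, 384 and 408 RPM in 18M replicates 1, 2 and 3. All 18M libraries were above all 2M libraries, but 18M replicate 1 stood close to the young range and the other two were far above it. These values rest on 2300 to 8999 reads a library. The log2 difference (18M minus 2M, on log2(RPM + 1)) was 1.22 ± 0.37 (SE), and the limma test over 474 labels of at least 10 RPM gave an unadjusted p of 0.0140 and an adjusted p of 0.146, so miR-344-3p did not pass the test. The tools disagreed on it: DESeq2 on the whole reads gave a log2 difference of 1.38 with an adjusted p of 0.00299, and edgeR's quasi-likelihood test gave 1.37 with an adjusted p of 0.0980. Over all alternatives and libraries left out, the adjusted p of miR-344-3p ran from 0.00226 to 0.358, and its log2 difference from 0.97 without 2M replicate 2 to 1.60 without 18M replicate 1.

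miR-344d-3p was at 275, 205 and 196 RPM at 2M, and at 249.6, 257 and 292 RPM at 18M. The highest young library lay inside the old range, so the ages overlapped. Its log2 difference was 0.25 ± 0.16 (SE), with an adjusted p of 0.442 in limma. miR-344c-3p, which has the seed of miR-344-3p, was at 48.2, 46.5 and 54.8 RPM at 2M and at 51.1, 44.9 and 57.0 RPM at 18M. Both ages covered the same range, and the log2 difference was 0.03 ± 0.13 (SE, limma adjusted p = 0.922). Thus the 2 miRNAs with 1 seed had differences of 1.22 and 0.03, and the difference between them was not tested. miR-344b-3p was at 38.5, 25.5 and 27.8 RPM at 2M and at 38.1, 40.2 and 36.3 RPM at 18M. Here 2M replicate 1 reached the old range while the other young libraries lay lower, and the log2 difference was 0.33 ± 0.17 (SE, limma adjusted p = 0.368).

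By limma, 0 of these 4 members passed an adjusted p of 0.05, against 4.85% of the 474 labels tested. At an unadjusted p under 0.05 it was 1 of 4, miR-344-3p, against 17.9% of all labels. DESeq2 called 1 of 4, miR-344-3p, where it called 9.7% of all labels, and edgeR called 0 of 4 where it called 2.95%. All 4 log2 differences were above 0, with the median of all labels tested at -0.07. 1 of the 4 had ages that did not overlap, which was so for 24.9% of the 474 labels.

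**Figure D2:**
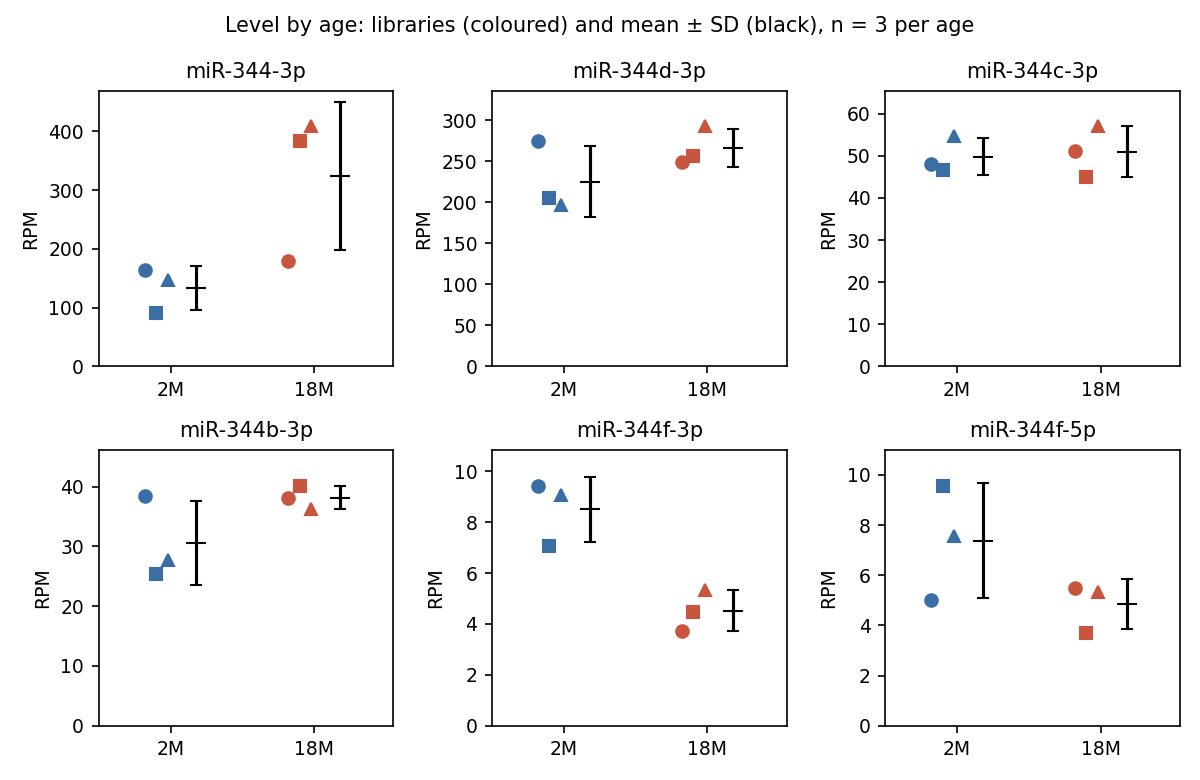
Level in RPM (linear axes from 0, a scale for each panel) of 6 miR-344 labels in each 2M (blue) and 18M (red) library, with the mean ± SD of the 3 libraries in black. miR-344-3p and miR-344f-3p are the 2 whose ages do not overlap, in opposite directions.

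The family held both directions once rarer members were included. miR-344f-3p was at 9.43, 7.05 and 9.05 RPM at 2M and at 3.74, 4.48 and 5.34 RPM at 18M, from 72 to 198 reads a library. Each old library was below each young library. Among the 708 labels of at least 1 RPM, its log2 difference was -0.79 ± 0.17 (SE) with an unadjusted p of 0.00202, and its limma adjusted p of 0.0507 missed the threshold of 0.05. DESeq2 gave -0.81 with an adjusted p of 0.0199 and edgeR gave -0.84 with an adjusted p of 0.0757. Leaving out a library kept miR-344f-3p between -0.90 and -0.68, and its limma adjusted p then ran from 0.0858 to 0.163.

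Its partner arm miR-344f-5p was at 5.001, 9.57 and 7.58 RPM at 2M and at 5.50, 3.71 and 5.34 RPM at 18M. Only 2M replicate 1 lay within the old range, and the log2 difference was -0.50 ± 0.24 (SE, limma adjusted p = 0.323). The remaining members of 1 to 10 RPM were closer between ages. miR-344d-3-5p ranged from 3.003 to 4.11 RPM at 2M and from 3.47 to 4.67 RPM at 18M. miR-344h-3p ranged from 1.95 to 4.05 RPM at 2M and from 3.03 to 4.43 RPM at 18M. miR-344g-5p had a mean of 1.70 ± 0.40 RPM in the young and 1.51 ± 0.51 RPM in the old libraries (SD, n = 3), and miR-344g-3p averaged 1.28 ± 0.70 and 1.73 ± 0.23 RPM. miR-344i averaged 1.19 ± 0.35 and 1.02 ± 0.43 RPM. All 5 of these overlapped between ages, and their adjusted p in limma ran from 0.489 to 0.770.

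At this lower filter, limma called 0 of the 11 members, against 3.11% of the 708 labels, and 2 of 11 had an unadjusted p under 0.05, against 17.8%. DESeq2 called 2 of 11, miR-344-3p and miR-344f-3p, against 6.64% of labels, and gave no adjusted p for miR-344i. Ages did not overlap for 2 of 11, against 25.1%. The 5 labels under 1 RPM had 6 to 110 reads in all 6 libraries together and entered no test. One of them, miR-344e-3p, named after its values were seen, was at 1.24, 1.08 and 1.001 RPM at 2M and at 0.726, 0.426 and 0.548 RPM at 18M, without overlap but on 10 to 27 reads a library. miR-344b-5p, a single sequence, had 0 reads in every 2M library and at most 4 reads in an 18M library. For this sequence, 0 reads allows up to 0.143 RPM in the shallowest 2M library. Its 6 reads in all were the lowest total of any sequence in the table, from which rare reads had been removed. It was thus in the table only through its 18M reads, and this contrast says nothing about age.

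The arms were used very unevenly in some hairpins and evenly in others. Over the 6 libraries, miR-344b-3p exceeded its 5p arm 719-fold, on only 6 reads of the 5p arm. The 3p arm exceeded the 5p arm 678-fold for miR-344, 160.0-fold for miR-344c and 57.4-fold for miR-344d, whose 5p reads are those of miR-344d-1-5p and miR-344d-3-5p together. In these 4, the 3p arm was the higher one in all 6 libraries. The 5p arms of miR-344 and miR-344c rested on 44 and 41 reads in all. No sequence of the table had fewer than 6 reads in total. Rarer 5p sequences may therefore be missing, and these ratios may be too high. Among the 256 miRNAs with both arms in the table and a summed mean of at least 10 RPM, the 3p arm was the higher one in 50.4%, and exceeded the 5p arm over 100-fold in 17.6%.

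For miR-344f and miR-344g neither arm led. The 3p arm made up 65.3%, 42.4% and 54.4% of miR-344f reads at 2M and 40.5%, 54.7% and 49.99% at 18M. It was higher in 3 of 6 libraries, and the ages overlapped. For miR-344g the 3p share ran from 29.8% to 59.7%, again with the 3p arm higher in 3 of 6 libraries. The 3p share of the whole family was 96.7% ± 1.17 at 2M and 98.1% ± 0.611 at 18M (SD, n = 3). These shares overlapped between ages and, as sums over members, were not tested.

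The 5p to 3p ratio was compared between ages for the 214 arm pairs with a summed mean of at least 10 RPM and a rarer arm of at least 1 RPM, among them miR-344d and miR-344f. miR-344g lay under the first of these limits. The log2 difference of the 5p to 3p ratio (18M minus 2M) was -0.07 ± 0.24 (SE) for miR-344d, with 3p shares of 98.0% to 98.7%, and 0.29 ± 0.33 (SE) for miR-344f. Neither passed limma, which called 0% of all pairs, and neither had an unadjusted p under 0.05. DESeq2 and edgeR were not run on ratios.

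All 13 RefSeq hairpins were placed on chromosome 7, from Mir344d-1 at chr7:61683124-61683192 to Mir344i at chr7:62085223-62085310 (GRCm38, minus strand). In GENCODE M21, 7 of them lay in an intron of the lincRNA A230057D06Rik, among them Mir344b at chr7:61790519-61790581, Mir344c at chr7:61837311-61837402 and Mir344 at chr7:61877770-61877864. A further 2 overlapped A330076H08Rik, Mir344-2 at chr7:61940027-61940106 in an intron and Mir344g at chr7:61982289-61982359 in an exon. The other 4, including Mir344f at chr7:62046181-62046248, overlapped no other gene on their strand. Ndn began 261 kb and Magel2 292 kb beyond the end of the cluster.

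Levels differed between neighbours in the cluster. The 3p reads of Mir344b, Mir344c and Mir344, neighbours over 87.3 kb in 1 lincRNA, averaged 34.4, 50.4 and 229 RPM. Mir344e and the pair Mir344h-1 and Mir344h-2, in introns of the same lincRNA, gave miR-344e-3p at 0.836 RPM and miR-344h-3p at 3.48 RPM. Some of these reads could not be given to a single gene. The main miR-344d-3p read occurs in 5 GENCODE miRNA genes, Mir344d-1, Mir344d-2, Mir344d-3, Gm23962 and Gm23490, and the main miR-344-3p read in 2, Mir344 and Mir344-2. The age difference of miR-344-3p therefore cannot be assigned to either of its 2 hairpins, which lie in different host transcripts.

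**Figure D3:**
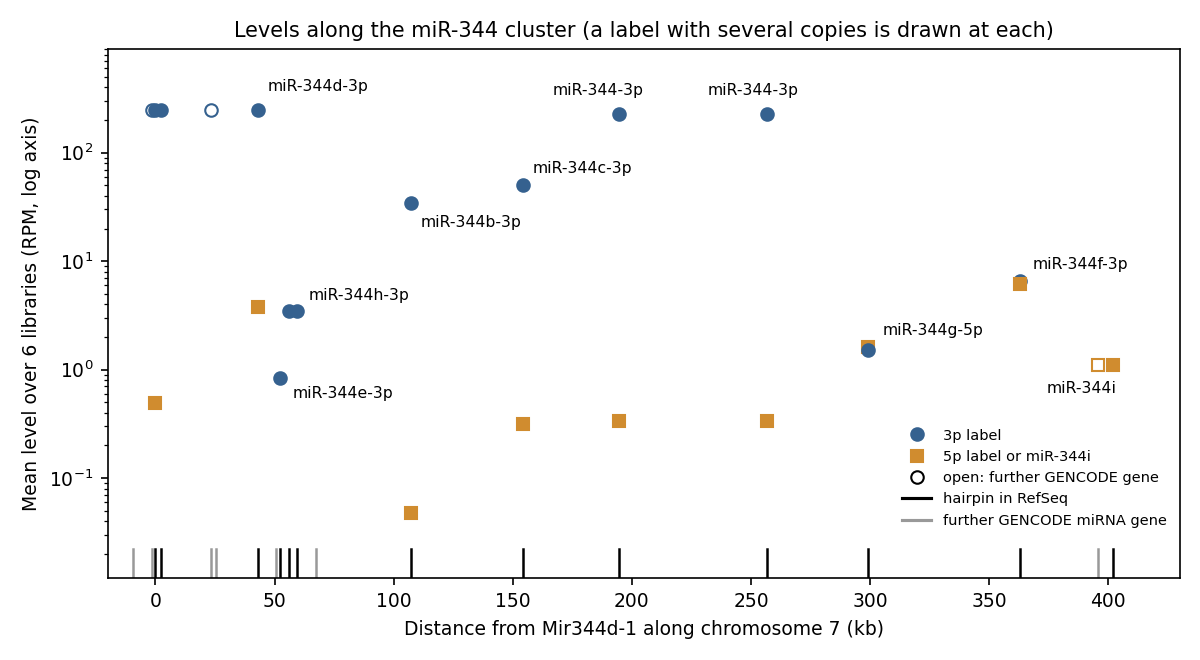
Mean level in RPM over 6 libraries (log axis) of each miR-344 label at the place of the hairpins that hold its main read (for miR-344g-3p, held whole by none, at Mir344g), in kb from Mir344d-1. Labels with several copies are drawn at every copy, so that miR-344d-3p at 246 RPM appears 5 times and miR-344-3p at 229 RPM appears 2 times.

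Single read sequences were compared next, since miRNA ends vary. Read sequences are written in DNA letters as in the table, again with positions 2 to 8 in capitals. The 5 most abundant family reads are followed by the main reads of forms that depart from RefSeq: the shifted miR-344c-3p read and the leading miR-344g-3p read. The 5 are the RefSeq mature forms of miR-344d-3p, miR-344-3p, miR-344c-3p and miR-344b-3p, with means of 171, 156, 32.1 and 26.3 RPM, and a miR-344d-3p read whose last base was changed, with a mean of 33.6 RPM.
miR-344d-3p, mature form: gATATAACcactgccagactga
miR-344-3p, mature form: tGATCTAGccaaagcctgactgt
miR-344d-3p, last base changed: gATATAACcactgccagactgt
miR-344c-3p, mature form: tGATCTAGtcaaagcctgacagt
miR-344b-3p, mature form: cATTTAGCcaaagcctgactgt
miR-344c-3p, start shifted: gATCTAGTcaaagcctgacagt
miR-344g-3p, leading read: cTCTAGCCaggggcttgactgt

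Most reads began where RefSeq begins. The RefSeq 6mer seed (positions 2 to 7) was on 97.2% of miR-344-3p reads, 96.8% of miR-344b-3p reads and 98.0% of miR-344d-3p reads over the 6 libraries. miR-344c-3p was the exception among the 4 leading members, with 82.0%. Its shifted read lacks the first base, averaged 8.23 RPM and has the 6mer seed AUCUAG. Reads that start at this second base were 16.9%, 19.6% and 19.6% of miR-344c-3p at 2M and 18.2%, 17.2% and 15.6% at 18M, with overlapping ages. In miR-344-3p, whose first 8 bases are the same, such reads were 0.549% to 0.814%.

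miR-344g-3p reads did not begin at the RefSeq start. Its leading read starts 4 bases further in and ends in a base that the hairpin does not encode. The shifted start replaces the RefSeq 6mer seed by UCUAGC, the seed of miR-344f-3p. This seed was on 97.7%, 96.4% and 71.4% of miR-344g-3p reads at 2M and on 96.5%, 100% and 97.7% at 18M, of 14 to 43 reads a library. The low value belongs to 2M replicate 3, the library with 14 reads.

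The 3′ ends of the 4 leading members carried unequal shares of bases that no miR-344 hairpin of RefSeq or of GENCODE in the cluster encodes. Such tails of 1 to 3 bases were on 16.5% of miR-344d-3p reads, 11.2% of miR-344b-3p reads, 7.83% of miR-344-3p reads and 3.91% of miR-344c-3p reads. In miR-344d-3p, 93.7% of the tailed reads had a tail of U alone. Most of these were the read printed above with a changed last base, which made up 12.6% to 14.5% of the label in every library. In miR-344-3p, A tails were more frequent, at 58.8% of tailed reads against 29.6% for U. A match elsewhere in the genome was not searched.

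No change of either end with age passed a test. miR-344d-3p was tailed in 15.8%, 16.7% and 15.5% of reads at 2M and in 16.4%, 17.2% and 17.2% at 18M, with a 2M library above the lowest 18M one. For the shares with the RefSeq seed and with a tail in the 4 leading members, 8 comparisons in all, exact two-sided permutation tests gave p-values of 0.2 to 1, adjusted to 0.8 or more. With 3 libraries against 3 the smallest p is 0.1.

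The levels of 3 read forms of miR-344-3p are given by library, without a test of the difference between forms. The mature form of 23 bases was at 109.6, 56.4 and 90.4 RPM at 2M and at 93.0, 289 and 299.8 RPM at 18M. For this form 18M replicate 1 was inside the young range, and the other two were far above it. The read 1 base shorter at the 3′ end was at 12.5, 9.80 and 10.7 RPM at 2M and at 22.5, 21.4 and 27.5 RPM at 18M. The read 2 bases shorter was at 17.0, 12.3 and 23.2 RPM at 2M and at 31.7, 34.1 and 35.5 RPM at 18M. These shorter reads were higher in all 18M libraries, replicate 1 included, so that the mature form made up 51.9% of the label there, against 75.4% and 73.4% in the other 18M libraries and 61.6% to 67.1% at 2M.

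In the fit over 3281 read sequences of at least 10 RPM, the log2 difference of miR-344-3p reads was 1.27 ± 0.48 (SE, limma adjusted p = 0.335) for the mature form. It was 1.05 ± 0.17 (SE) for the read 1 base shorter, with an adjusted p of 0.0791, and 0.95 ± 0.23 (SE, adjusted p = 0.175) for the read 2 bases shorter. Of the 8 family sequences tested, limma called 0, where it called 0.366% of all sequences. An unadjusted p under 0.05 was found for 3 of 8, these 3 forms of miR-344-3p, against 13% of all. edgeR called 0 of 8 and DESeq2 called 2 of 8, the 2 shorter forms, against 4.6% of all sequences. Another 25 sequences averaged 1 to 10 RPM and 198 averaged less.

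**Figure D4:**
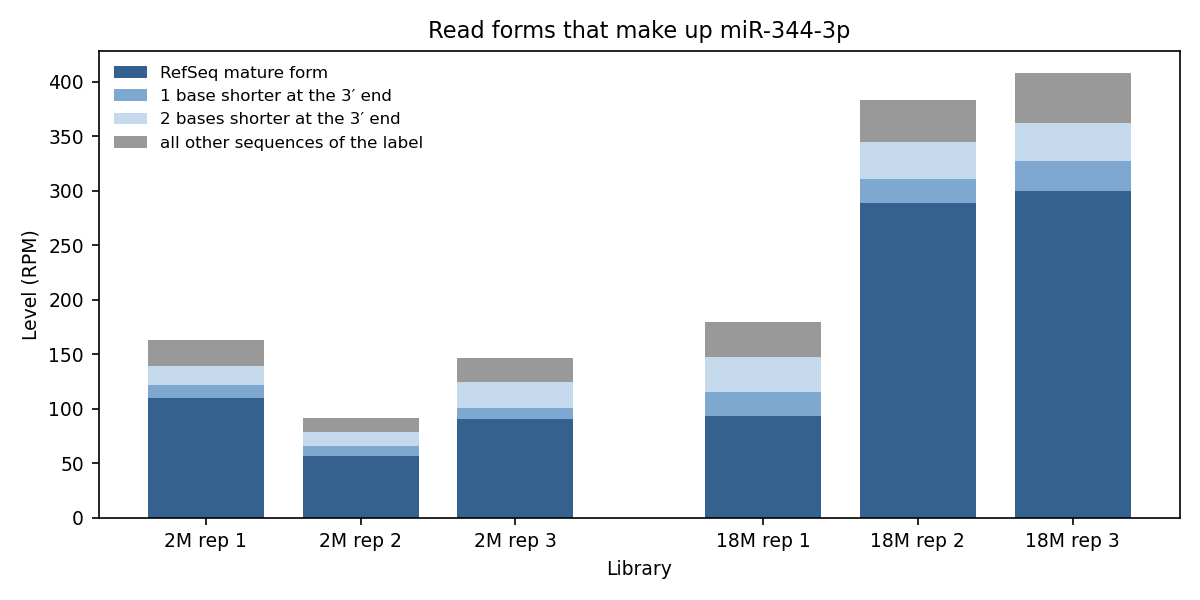
Stacked level in RPM of miR-344-3p in each library, divided into the RefSeq mature form, the reads 1 and 2 bases shorter at the 3′ end and all other sequences of the label. The mature form is at 289 and 299.8 RPM in 2 of the 18M libraries and at 93.0 RPM in the third, within the 2M range of 56.4 to 109.6 RPM.

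The table gives every read a 6mer seed viability, the percent of cells that live on when an siRNA of that seed is transfected into them, in which low values mark toxic seeds. The family carried mostly nontoxic seeds. The 3 most abundant of its 37 seeds made up 92.0% of its reads: GAUCUA of miR-344-3p and miR-344c-3p with a viability of 77.3, AUAUAA of miR-344d-3p with 94.3 and AUUUAG of miR-344b-3p with 99.6. Weighted by reads, the mean viability of the family was 84.1 ± 0.774 at 2M and 83.4 ± 0.975 at 18M (SD, n = 3), against 58.0 ± 0.105 and 57.7 ± 0.249 for all reads in the table.

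Toxic seeds occurred in the minor members. The 5p seed GUCAGG had a viability of 17.8, GUCAGU of miR-344f-5p 31.3 and UCUAGC of miR-344f-3p and the observed miR-344g-3p reads 35.6. Family reads with a viability under 40 were 4.15%, 6.24% and 5.14% at 2M and 3.45%, 2.36% and 2.57% at 18M. Each old library was below each young one. The share is of the family total, which averaged 468 RPM at 2M and 703 RPM at 18M. In RPM, GUCAGG averaged 5.97 ± 0.528 at 2M and 6.69 ± 0.327 at 18M (SD, n = 3), with overlapping ages. GUCAGU averaged 7.38 ± 2.29 and 4.85 ± 0.991 RPM, also with overlap. UCUAGC averaged 9.69 ± 1.58 and 6.50 ± 1.36 RPM, without overlap. As a share over members, the percent under 40 was not tested.

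Some seeds belonged nearly to this family alone and others did not. Family reads were 98.6% of all reads with the seed GAUCUA, 98.5% of those with AUUUAG and 95.03% of those with GUCAGG. By contrast they were 7.90% of reads with AUAUAA, most of which were miR-410-3p at 2761 RPM, and 9.61% of reads with GUCAGU, where miR-223-3p, a miRNA of myeloid cells, had 55.5 RPM. The seed GAUCUA summed over the family to 197, 125 and 186 RPM at 2M and to 215, 412 and 448 RPM at 18M, without overlap.

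**Figure D5:**
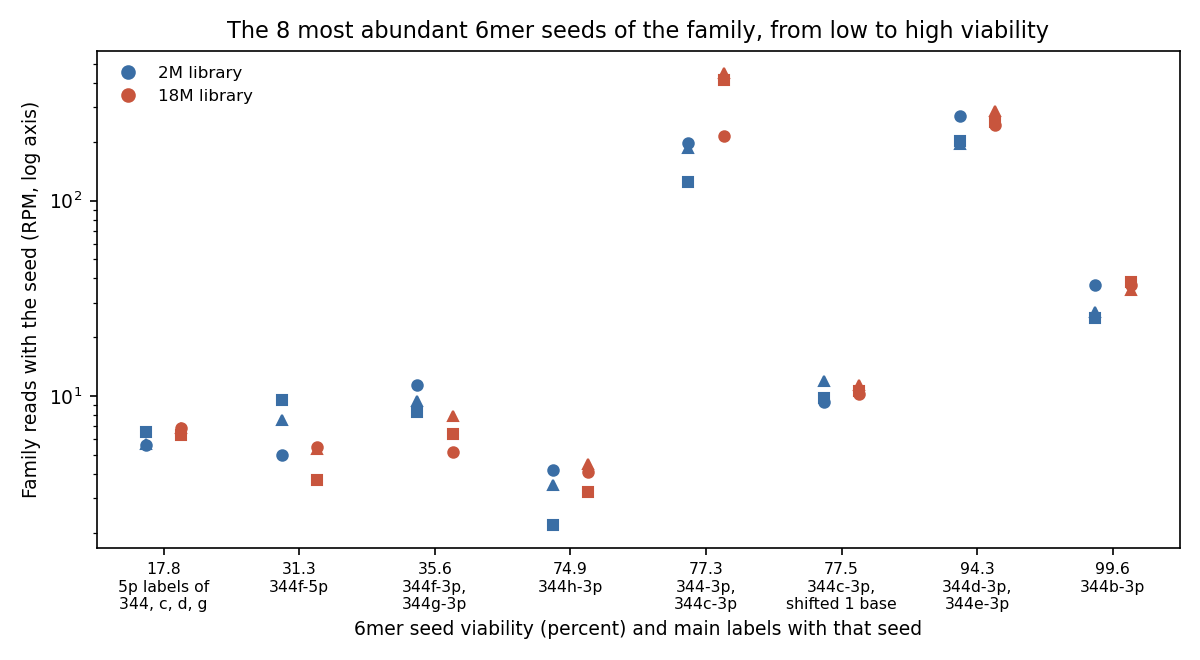
Family reads in RPM (log axis) for each of its 8 most abundant 6mer seeds, ordered by seed viability, in each 2M (blue) and 18M (red) library. The seeds with a viability of 77.3, 94.3 and 99.6 carry most reads, while those of 17.8 to 35.6 stay at or under 11.4 RPM.

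The labels most like miR-344d-3p across the 6 libraries, by Pearson's r of log2(RPM + 1) among 470 labels outside the family, were miR-218-2-3p (r = 0.956), miR-664-3p (r = 0.946), miR-218-5p (r = 0.913), miR-130b-3p (r = 0.909) and miR-30d-3p (r = 0.908). These were the highest of 470 values over 6 libraries that share depth and composition, and are a description.

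The levels of 9 lists of marker miRNAs were read beside the tissue label. The 13 neuron-enriched miRNAs, such as miR-124-3p and miR-9-5p, summed to 271241 to 288134 RPM at 2M and 247538 to 304103 RPM at 18M, and 0 of 13 were called by limma, with a median log2 difference of -0.06 beside -0.07 for all labels. In the lists for oligodendrocytes, vessels, microglia with blood immune cells, muscle, erythrocytes, pituitary, choroid plexus and the miR-200 family, 0 members were called as well, and the medians ran from -0.89 for pituitary to -0.03 for choroid plexus. Only 3 of 4 erythrocyte, 2 of 3 muscle and 1 of 2 choroid plexus miRNAs were tested, so the choroid plexus value is that of a single miRNA. Only the microglia and immune list had summed levels that did not overlap, at 3773 to 4107 RPM at 2M and 2828 to 3397 RPM at 18M. Erythrocyte miRNAs summed to 2550 to 3689 RPM at 2M and to 2892, 1307 and 2469 RPM in 18M replicates 1, 2 and 3. The miR-200 list, of olfactory and epithelial miRNAs, summed to 37770 to 44974 RPM at 2M and 28949 to 48013 RPM at 18M. The pituitary list summed to 4751 to 7421 RPM at 2M and 3866 to 5413 RPM at 18M. It shares miR-7a-5p with the neuron list and miR-141-3p with the miR-200 list, so these lists are not separate. Whether the samples held tissue other than cortex and hippocampus was not tested. The part of these lists in the miR-344 values was not tested, and in bulk tissue fewer cells of a type cannot be told from less miRNA per cell.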

How the data were processed

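Argonaute-bound RNA of 19 to 35 bases was sequenced by Illumina HiSeq. As the methods and labels state, the authors demultiplexed and trimmed reads (Trim Galore), collapsed them, removed rare reads and matched them by BLAST to mouse small RNAs in the SPOROS pipeline. Versions are not given in the sources used here. The deposited values are RPM, which the authors scaled per library. The deposited seed viability is a score in percent. Within each library 100% of values were whole multiples of 1 read within 0.02 of a step, and whole reads were recovered from them.

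RPM of all reads of a label were summed. 308 of 143934 sequences in the table carried several labels and counted for each. Age was tested with limma 3.58.1 (trend) in R 4.3.3 on log2(RPM + 1) over labels, sequences (mean of at least 10 RPM) and 5p to 3p ratios of arm pairs (summed mean of at least 10 RPM, rarer arm of at least 1 RPM), and p-values were adjusted by Benjamini-Hochberg over all features tested. This scale understates changes of low features. edgeR 4.0.16 (quasi-likelihood, TMM) and DESeq2 1.42.0 were run on the whole reads. In simulated reads changed 4-fold, limma called 135 of 135 changed labels, 48 of 48 changed sequences and 60 of 60 changed arm pairs. Among unchanged features it called 2 of 349 labels, 1 of 3227 sequences and 2 of 154 arm pairs. The simulated spread was the same for all features and was not matched to that of these libraries. Smaller changes were not simulated, so these counts do not give the power for differences of the size seen in the family. Shares were compared with exact permutation tests in scipy 1.17.1.

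Members, marker lists and tests were chosen with earlier results of these data known. Members with a mean of at least 1 RPM were named with values. Named reads were the 5 most abundant, and the main read of each label of at least 10 RPM. Reads were compared with RefSeq hairpins (GRCm38.p6) and GENCODE M21 miRNA transcripts in the cluster. The table's second annotation names another build for mRNA entries, and its coordinates were not used. Intervals from reads cover counting error only, since molecules carried no identifiers. Alternatives were pseudocounts, filters, scaling, a replicate block, limma without trend, single-label reads and leaving out each library.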

Additional observations from a re-analysis of the deposited data

Results flagged for a closer look

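The table has a second annotation column beside the miRNA labels. It held 30 read sequences without a miRNA label that this column gives to mmu-mir-344-2, and they entered no value above. Their summed level averaged 2.89 RPM over the 6 libraries, 0.494% of the family, above the level of 3 reads. It was 2.15, 0.800 and 1.29 RPM in 2M replicates 1, 2 and 3 and 2.70, 5.59 and 4.84 RPM in 18M replicates 1, 2 and 3. All 18M libraries were above all 2M libraries, in the order of libraries seen for miR-344-3p except that 18M replicate 2 was the highest. No test was run on these reads.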

How the results depend on the processing

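DESeq2 called 1 miR-344 miRNA and 2 miR-344 read sequences, where limma called 0 of each; the cause was not tested. The other alternatives kept both counts at 0: pseudocounts of 0.1 and 5 RPM, filters at 1 and 100 RPM, scaling by median of ratios, limma without trend, edgeR, and each library left out (0 to 0). Single-label reads and reads divided among labels, run on miRNAs, also gave 0. Arm ratios also stayed at 0 called, and with a rarer arm of at least 10 RPM no miR-344 pair was left to test. Directions reversed for differences near 0. With each library left out in turn, miR-344c-3p ran from -0.0516 to 0.116 and was -0.0168 without 2M replicate 2. The miR-344d 5p to 3p ratio ran from -0.264 to 0.0832, with 0.0366 and 0.0288 without 2M replicates 2 and 3, and the miR-344f 5p to 3p ratio from -0.0014 to 0.593. Among labels of at least 1 RPM, in fits added after seeing the data, miR-344g-5p ran from -0.274 to 0.00295 and miR-344i from -0.264 to 0.0501. Leaving out a library gave a family difference of 176 to 315 RPM and a 3p share difference of 0.766 to 1.93 percentage points.

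Same-numbered libraries of the 2 ages correlated at -0.17, -0.22 and -0.10 in their deviations over 474 labels. Differently numbered ones correlated at -0.10 to 0.18. Replicate numbers thus did not mark more similar samples, but with 3 libraries an age these values cannot exclude a pairing. The replicate block left 0 miRNAs, 0 read sequences and 0 arm ratios of the family called, with an adjusted p of 0.261 for miR-344-3p, and 1 label called among all. Median-of-ratios scaling moved the median of all labels by 0.09 (log2). With 3 libraries an age, differences the size of that of miR-344b-3p lay within the spread, and members under 1 RPM had too few reads for a test.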

Other observations

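The 2 annotation columns of the table classed the family differently. Of the 231 sequences with a miR-344 label, the second column gave 108 to miRNAs, with 52.2% of the family's reads, and 114 to mRNA entries, with 47.1%, while 9 had no match there. All 50 sequences of miR-344d-3p were among those given to mRNA entries. So were all sequences of miR-344c-5p, miR-344d-1-5p, miR-344e-3p, miR-344f-3p, miR-344f-5p, miR-344g-3p, miR-344g-5p and miR-344h-3p. All 62 sequences of miR-344-3p and all 20 of miR-344b-3p were given to miRNAs. A count of miRNAs from the second column alone would thus leave out the highest member of the family.

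The shifted form of miR-344c-3p (seed AUCUAG) added to rarer shifted reads of miR-344-3p, and together they had a mean of 10.3 ± 1.39 RPM in the young and 10.8 ± 0.590 RPM in the old libraries (SD, n = 3). Family reads made up 90.0% of all reads with this seed.

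The labels whose levels were most like those of miR-344-3p over the 6 libraries, a comparison added after its values were seen, were let-7d-3p (r = 0.982), miR-1843b-3p (r = 0.967) and miR-7044-3p (r = 0.964) among 470 labels. let-7d-3p had a mean of 1434 ± 107 RPM in the young and 1776 ± 187 RPM in the old libraries (SD, n = 3), without overlap. These are the highest of many values over 6 libraries and are given as a description.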
